A study of Oryza sativa Japonica Group with 24 samples.

Results

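The deposited expression table of rice seedlings lists 57668 features, of which 1682 are transcripts that were assembled from the reads and carry no locus name. The 947 described here are those whose mean level was at least 1 FPKM (fragments per kilobase of transcript, scaled to library size, as deposited) over the 12 root libraries or over the 12 shoot libraries. They were selected on these measured levels, so how high they are, and in which tissue, is a description and not a test. Their deposited identifiers are a generic word followed by a number, and UT68, for example, stands here for the unannotated transcript numbered 68.

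RNA was sequenced from roots and from shoots of Japonica rice. The plants grown with 200 µM phosphate (Pi) were wild type (WT), an overexpressor of bHLH6, a transcription factor gene (bHLH6-OV), and a T-DNA mutant of the phosphate signalling gene SPX4 (spx4), and WT was grown with 10 µM Pi (low Pi) as well. Pi supply began at day 7 and lasted 2 weeks, and each library pooled 3 seedlings. Root and shoot of each line and supply make 8 groups with 3 libraries each. There was 1 overexpressing line and 1 mutant line, neither was grown at low Pi, and differences that belong to a line's own history cannot be told apart from those of the altered gene. Nothing in the labels says whether replicates were grown apart in time, so p-values measure the spread between these pooled samples.

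Transcripts outside annotated genes can be long noncoding RNAs, genes missed by the annotation, unannotated ends of neighbouring genes, or copies of mobile elements. In plants under Pi shortage, noncoding RNAs are part of the known response: IPS1 is a noncoding RNA that sequesters a microRNA of Pi signalling, and it accumulates strongly when Pi is short. SPX4 is an inhibitor of Pi starvation signalling that acts when Pi is ample.

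The reads counted on features came to 21.0 to 29.6 M in a library, and the 947 transcripts took 0.758 to 1.07% of them. The manipulated genes were read first. The bHLH6 gene (LOC_Os04g23550) stood at 5.35, 5.66 and 3.24 FPKM in the WT roots and at 115, 124 and 164 in the bHLH6-OV roots, and its log2 fold change was 4.57 in roots and 4.08 in shoots (limma adjusted p 0.00076 and 0.00075). It also rose in low Pi WT shoots, to 9.25, 83.1 and 73.8 FPKM from a mean of 5.24 (log2 2.685, limma adjusted p 0.00484). In spx4 shoots it averaged 23.0 FPKM and was not called (limma adjusted p 0.178). SPX4 (LOC_Os03g61200) was lower but not absent in spx4, at 6.21 FPKM against 11.3 in roots and 7.67 against 13.8 in shoots. IPS1 (LOC_Os03g05334) stood at 1593 FPKM in low Pi roots against 1.47 at 200 µM Pi, and at 275 against 0.303 in shoots. The WT low Pi shoot library of replicate 1 stood apart: 29 of 787 tested transcripts lay at least 2-fold from both other replicates, 24 of them lower, whereas every other library had 0 to 13. In bulk tissue, fewer cells of a type and less RNA per cell cannot be told apart.

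The transcripts lay between the named loci. None of the 947 overlapped a named locus, and the median distance to the nearest one was 758 bases. For 541 of them (57.1%) that locus lay within 1000 bases, in 192 cases on the same strand, of which 83 began after the locus ended. Only 15 lay more than 10000 bases from any named locus. The 735 unannotated transcripts below the level threshold had a median distance of 1394 bases. The deposited notes do not say whether reads were counted by strand, so where a transcript lies beside a gene on the other strand, reads of the pair may not be fully separated.

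Most of the transcripts were spliced and short, and few carried a known domain. The median length was 1384 bases, with quartiles of 970 and 2139 bases and a range of 258 to 15001. The files give no exon number; a genomic span longer than the model length, taken here as spliced, was found for 635 (67.1%), compared with 373 of 735 (50.7%) of those below the threshold and 81.8% of expressed named loci. A protein domain description was given for 121 (12.8%), against 52.9% of expressed named loci. All 12 chromosomes held members, from 33 on chromosome 9 to 130 on chromosome 1, and 3 more lay on unanchored sequence.

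Levels were low for most and high for a few. The median of each transcript's higher tissue mean was 3.16 FPKM, compared with 10.8 FPKM for expressed named loci. In WT at 200 µM Pi, 91 transcripts exceeded 10 FPKM in roots and 158 did so in shoots. By the higher of the means over all root and over all shoot libraries, 173 transcripts reached 10 FPKM and 13 reached 100 FPKM. Just inside the threshold were UT1454 and UT1297 at 1.00 FPKM and UT769 at 1.01, and just outside were 3 at 0.995, 0.997 and 0.997. Of the 735 below it, 191 had no read in any of the 24 libraries, and 184 of those 191 overlapped another unannotated transcript, as 19 of the 947 did.

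Of the 8 most abundant root transcripts 4 carry a domain description, 3 of them of ribosomal proteins, and 4 have none. UT901 (chromosome 3, 32398281 to 32399925, minus strand), whose description is ribosomal protein L41, a very small protein of the large ribosomal subunit, was the most abundant, at 225, 203 and 219 FPKM in WT roots and 67.8, 67.3 and 76.1 in WT shoots. UT1064 (ribosomal protein L14) averaged 143 FPKM over all root libraries and 73.6 over all shoot libraries. UT1434 (ribosomal L38e family) averaged 121 and 67.9 FPKM, and UT1059, which carries subunit VIb of cytochrome oxidase, the terminal enzyme of the respiratory chain, averaged 132 and 43.0. Every WT root library was above every WT shoot library for UT901. Those with no description were UT827 at 149 FPKM, UT648 at 149, UT964 at 139.9 and UT1398 at 129.

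Shoots were led by transcripts with no description. UT1398 (chromosome 7, 4567565 to 4568795, minus strand) stood at 291, 276 and 326 FPKM in WT shoots and 127, 118 and 123 in WT roots. UT1053 averaged 173 FPKM over the shoot libraries and 19.5 over the root libraries, UT1091 averaged 159.8 and 1.41, UT956 averaged 154 and 12.5, and UT991 averaged 76.2 and 0.664. These 4 were listed for their high shoot levels. All were higher in shoots than in roots, with no overlap between tissues. UT1053 and UT956 were nevertheless present in roots, at the means of 19.5 and 12.5 FPKM, so they were not confined to 1 of the tissues. UT614, which carries a K-box, the dimerization region of MADS-box transcription factors, was equal in both at 114 and 113 FPKM. UT1333, described as the photosystem II assembly factor YCF48, averaged 97.9 FPKM in shoots and 5.40 in roots.

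More of the transcripts favoured the shoot than the root. In WT at 200 µM Pi, 260 of 947 (27.5%) were at least 4-fold higher in shoots and 122 (12.9%) at least 4-fold higher in roots, with 565 in between. Among the 23696 expressed named loci the order was the other way, with 15.1% higher in shoots and 24.5% in roots, and over all expressed features the shares were 15.6% and 24%. The order within the transcripts held when libraries were rescaled to equal sums (TPM), at 210 and 159, and at thresholds of 2-fold and 10-fold. Of the biased transcripts, 24 of the 260 and 10 of the 122 had WT means below 1 FPKM in both tissues. Since membership rests on the level in either tissue, these shares are a description.

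**Figure D1:**
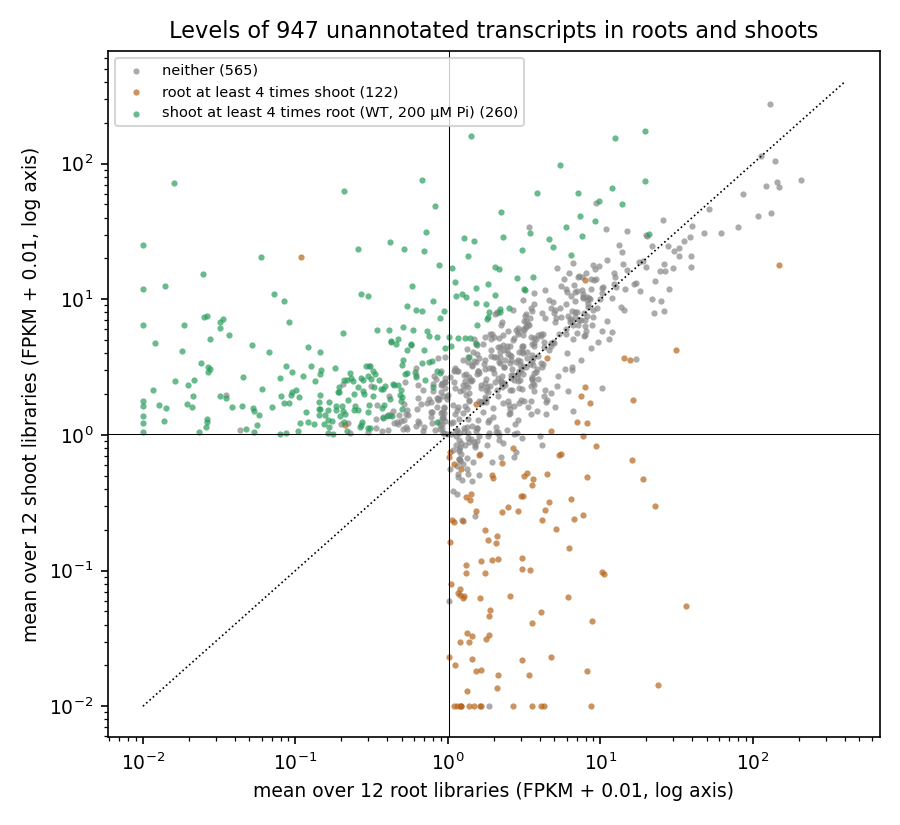
Mean FPKM (+ 0.01, log axes) of each of the 947 transcripts over the 12 root libraries (horizontal) and the 12 shoot libraries (vertical); the thin lines mark the threshold of 1 FPKM and the dotted line equality. The 260 transcripts at least 4-fold higher in WT shoots are green, the 122 at least 4-fold higher in WT roots brown and the other 565 grey, and the green cloud reaches down to root levels of 0.

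Low Pi had its widest effect in shoots, where it lowered far more of the transcripts than it raised. Of 787 transcripts tested in shoots, 306 fell and 66 rose in WT at 10 against 200 µM Pi (limma adjusted p under 0.05), together 47.3%. Among all 19990 features tested in shoots 48.2% were called, 26% lower and 22.2% higher, so the share called was near the background while the split was not: 38.9% of the transcripts were lower and 8.39% higher. The median log2 fold change was -0.23 for the transcripts and -0.05 for all features. In roots 167 of 645 were called, 57 higher and 110 lower, which is 25.9% against a background of 31.4% of all features (15.3% higher and 16.1% lower). The summed level of 3 root marker loci was 3028 to 3442 FPKM in low Pi roots and 3816 to 4062 in WT roots at 200 µM Pi, and 2 of the 3 were called lower. Green tissue markers, 3 loci of the small subunit of ribulose bisphosphate carboxylase, summed to 3.37 to 8.43 FPKM in low Pi roots against 26.3 to 34.0, with 2 of 3 called lower. Of 55 shoot-biased transcripts 13 fell there (23.6%) and 1 rose (1.82%), against 25.9% and 12.1% of shoot-biased named loci. The part of either tissue in the root changes was not tested.

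The shoot split was seen at every level of abundance. For mean levels of 1 to 2, 2 to 5, 5 to 20 and at least 20 FPKM, 29.2, 36.2, 47.9 and 53.6% of the transcripts fell, compared with 15.6, 18.8, 25.2 and 34.9% of the named loci of the same level. Among shoot-biased transcripts 54.6% fell (142 of 260, with 17 higher), against 46.2% of shoot-biased named loci. That bias was read from the same WT shoot libraries that are the control here, so the share is a description. With TPM scaling 247 fell and 69 rose, while all features moved to 17.2% lower and 24% higher. Without the WT low Pi shoot library of replicate 1, 358 were called. The green tissue markers summed to 3993 FPKM in that library, 16549 and 17654 in the other low Pi shoots and 14453 to 20297 in WT shoots at 200 µM Pi. None of these loci was at 0 or called there, and their part in the fall was not tested.

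**Figure D2:**
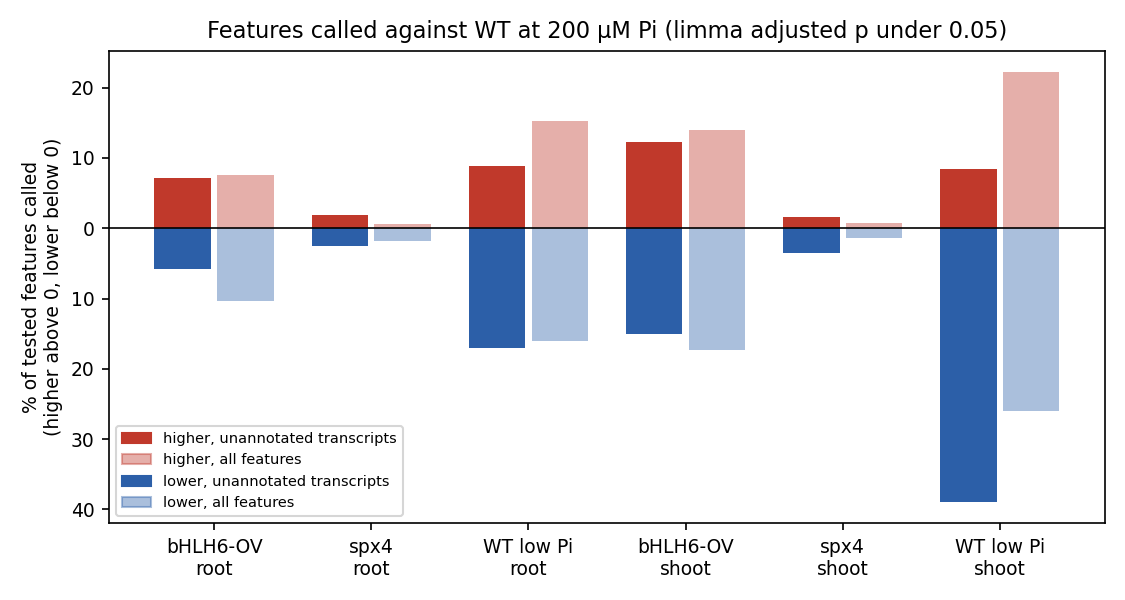
Share of tested features called against WT at 200 µM Pi (limma adjusted p under 0.05), higher above the line and lower below it, for the unannotated transcripts (solid bars) and all features (pale bars) in each of 6 comparisons. In low Pi shoots 38.9% of the transcripts but 26% of all features were lower, and 8.39% against 22.2% were higher.

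Among the transcripts that rose in low Pi shoots, UT572 moved furthest. This transcript (chromosome 12, 20193078 to 20194880, minus strand, no description) stood at 0.027, 0.124 and 0.0911 FPKM in WT shoots at 200 µM Pi and at 62.5, 50.9 and 51.0 at low Pi. The low Pi libraries were all far above the others, and bHLH6-OV and spx4 shoots stayed at or below 0.196 FPKM. The log2 fold change was 5.69 with a standard error of 0.11 (limma adjusted p 7.41e-11). UT572 reached the level threshold in shoots only through low Pi, so that p-value adds nothing to this choice. In roots it was present at both supplies, at 6.18, 7.09 and 6.47 FPKM against 13.3, 10.7 and 9.90, a log2 change of 0.69 (limma adjusted p 0.00255). The nearest locus, LOC_Os12g33415, lies 4134 bases away on the same strand and rose by 3.14 on the log2 scale in low Pi shoots.

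UT91 rose in both tissues. In roots it went from 0.0937, 0.205 and 0.208 FPKM to 10.7, 7.31 and 7.75, and in shoots from 0.229, 0 and 0 to 8.33, 6.13 and 5.76. No low Pi library overlapped a library at 200 µM Pi. Its log2 fold changes were 3.02 and 2.84 (limma adjusted p 1.46e-07 and 9.75e-08), and the difference between the tissues was 0.18 (limma adjusted p 0.502). UT91 reached the level threshold in each tissue only through low Pi, so the p-values of its rises add nothing to that choice. UT1071 (chromosome 4, 31566273 to 31568024, minus strand) also rose in both, from 8.67, 10.0 and 10.3 to 28.6, 24.6 and 24.4 FPKM in roots, by 1.34, and by 1.64 in shoots. It ends 1 base from LOC_Os04g53000 on the other strand, which rose by 1.44 and 1.67.

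Others rose in shoots from near nothing. UT1068 had no read in any shoot library of the other 3 groups and stood at 9.48, 6.16 and 7.70 FPKM in the low Pi shoots, at least 67.0-fold higher than a floor of 3 reads in each WT library. It lies 131 bases from LOC_Os04g48410, a copper/zinc superoxide dismutase locus on the other strand. UT1232 rose from 0.488, 0.558 and 0.579 to 13.5, 12.6 and 12.98 FPKM (log2 3.19, limma adjusted p 2.05e-09) and, in roots, by 0.92. It too reached the level threshold in shoots only through low Pi, so the shoot p-value adds nothing to that choice. Further shoot rises on the log2 scale were 2.73 for UT980, 2.15 for UT778, 1.98 for UT530 and 1.69 for UT919.

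In roots the transcripts that rose most were of low to moderate level. UT495 stood at 5.59, 6.22 and 7.34 FPKM at 200 µM Pi and at 30.0, 13.04 and 17.6 at low Pi (log2 1.45, limma adjusted p 0.00533), without overlap, and had no read in any shoot library. UT761 rose by 1.84 on the log2 scale. Among those with a domain, UT103 (Transferase family) rose by 0.99, UT720 (POT family, membrane proteins that carry peptides or nitrate) by 0.81 and UT1587 (endomembrane protein 70) by 0.76.

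The deepest falls at low Pi were shared between tissues: UT68 and UT726 fell most in roots, and in shoots they came next after UT1390, all 3 with values given further on. Of the following ones, in shoots UT951 stood at 10.6, 12.2 and 9.79 FPKM at 200 µM Pi and at 0.277, 0.421 and 0.257 at low Pi, a log2 change of -3.16 (limma adjusted p 5.6e-06). UT127, UT1250, UT24 and UT1493 changed by -2.67, -2.39, -2.31 and -2.29 on the log2 scale. Each of these 5 had low Pi libraries wholly below the WT libraries at 200 µM Pi. In roots UT472 went from 7.84, 8.49 and 8.40 FPKM to 1.08, 1.12 and 1.51, by -2.05 (limma adjusted p 2.73e-06), and was all but absent from shoots. UT446, with the domains of an M24 metallopeptidase, which removes amino acids from the ends of proteins, went from 40.3, 38.9 and 36.3 to 12.03, 18.8 and 15.5 FPKM in roots, by -1.28, and had at most 0.0833 FPKM in shoots. UT1670, 219 bases from an inositol tetrakisphosphate kinase locus (LOC_Os09g34300), fell by 1.64 in roots.

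Abundant transcripts also fell. UT1053 went from 182, 196 and 209 FPKM to 74.2, 111 and 112 in shoots and from 20.7, 18.1 and 17.7 to 8.40, 8.88 and 9.01 in roots, by -0.999 and -1.02 on the log2 scale (limma adjusted p 0.000401 and 0.000583). UT956 went opposite ways, by -0.81 in roots and 0.35 in shoots, and the difference of -1.16 passed the test (limma adjusted p 0.000567), although the shoot call was lost when any of 4 single libraries was left out. UT991 fell by 0.90 in shoots and UT1333, the YCF48 transcript, by 0.55, the latter not without WT shoot replicate 3. UT1091 stood at 56.2, 161 and 157 FPKM in low Pi shoots against 171, 176 and 188, and was not called (limma adjusted p 0.141).

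Roots and shoots overlapped in part. Called in both tissues were 72 transcripts: 14 rose in both, 45 fell in both and 13 went opposite ways. Among transcripts tested in both tissues they were 61% of 118 root calls and 31% of 232 shoot calls, against 57% and 35.3% over all features. UT91, which reached 1 FPKM in each tissue only through low Pi, is among them, so these shares are a description. The test of the difference itself called 321 of 947 (33.9%) against a background of 37.1% (18.3% with the root change above the shoot change and 18.8% below), and 225 of the 321 had the root change above the shoot change. With TPM scaling that split became 148 and 115. UT572 had the largest negative difference, -5.00, and UT1390, described below with the line effects, the largest positive one, 7.69.

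**Figure D3:**
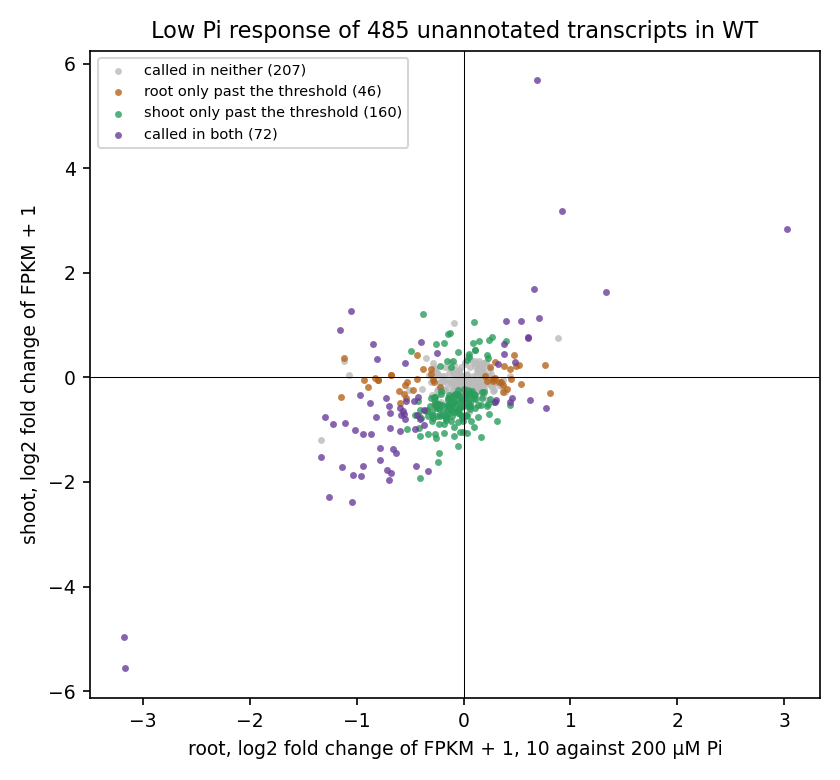
Log2 fold change of FPKM + 1 at 10 against 200 µM Pi in WT roots (horizontal) and WT shoots (vertical) for the transcripts tested in both tissues, coloured by where limma's adjusted p was under 0.05. The 72 called in both are purple, and 45 of them fell in both tissues.

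Overexpression of bHLH6 changed fewer transcripts in roots than in shoots. In roots 83 of 645 (12.9%) were called, 46 higher and 37 lower, against a background of 18% (7.62% higher and 10.4% lower). Without WT root replicate 1, 2 or 3 the root count was 55, 55 or 45. Without bHLH6-OV root replicate 1, 2 or 3 it was 60, 65 or 88. Over all features the WT omissions cut 3975 calls to 2562, 2342 and 2147. In shoots 216 of 787 (27.4%) were called, 97 higher and 119 lower, against 31.3% (14% higher and 17.3% lower). The shoot split depended on the scaling, with 162 higher and 58 lower under TPM and 106 and 105 under median ratios. TPM moved the median log2 fold change of all shoot features in this comparison by 0.20, so small shoot changes are relative to that choice.

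Among calls of 2-fold or more, 13 of 17 were higher in roots and 47 of 71 in shoots, against 61% and 62.5% of such calls over all features. Several of these transcripts are members only through their level in bHLH6-OV: among those that reach 1 FPKM without its libraries, 5 were higher and 4 lower in roots, and 19 higher and 24 lower in shoots. Those counts still hold transcripts that pass only through bHLH6-OV and spx4 together, such as UT793. Green tissue markers moved too: the 3 small subunit loci summed to 105 to 145 FPKM in bHLH6-OV roots against 26.3 to 34.0 in WT roots, and all 3 were called higher. In spx4 roots they summed to 37.99 to 119 FPKM and 1 was called higher. Of 55 tested transcripts with a shoot bias, 8 rose (14.5%) and 1 fell (1.82%) in bHLH6-OV roots, against 21.5% and 5.92% of shoot-biased named loci. The part of green tissue in those rises was not tested.

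The largest increases were transcripts that WT hardly had. UT793 (chromosome 3, 17809723 to 17810783, plus strand, no description) stood at 0, 0 and 0.0707 FPKM in WT roots and at 44.7, 42.2 and 40.4 in bHLH6-OV roots. Its shoot values were 0.0776, 0.355 and 1.22 in WT and 51.0, 65.5 and 53.8 in bHLH6-OV. The groups were far apart in both tissues, and log2 fold changes were 5.41 and 5.28 (limma adjusted p 4.67e-12 and 1.46e-08). UT793 is a member only through bHLH6-OV and spx4, so these p-values add nothing to that choice.

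UT1206, UT794 and UT482 were likewise raised in both tissues of bHLH6-OV, and in spx4 they were at or near 0. UT1206 went from 0, 0 and 0.0574 to 12.5, 14.6 and 15.2 FPKM in roots, and to 30.1, 30.7 and 37.1 in shoots, where it stood at 0.063, 0 and 0 in WT (log2 3.88 and 5.04). UT794 had no read in WT and stood at 10.1, 12.3 and 8.74 FPKM in bHLH6-OV roots, at least 104-fold above the floor, and at 11.4, 10.8 and 11.1 in shoots, at least 89.9-fold. Its nearest locus, LOC_Os03g31560, a Pif1-like DNA helicase 641 bases away on the same strand, rose by 2.55 in roots and 2.40 in shoots on the log2 scale. UT482 stood at 4.22, 8.35 and 8.60 FPKM in bHLH6-OV roots, at least 46.7-fold above a WT with no read.

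A second group rose mainly in shoots of bHLH6-OV. UT476 went from 2.91, 2.34 and 1.90 FPKM in WT shoots to 114, 77.0 and 121 (log2 4.94, limma adjusted p 1.15e-08), and by 1.76 in roots. UT1242 went from 8.62, 6.88 and 6.94 to 123, 96.3 and 79.1 FPKM in shoots and by 1.31 in roots. UT247, UT1300 and UT1174, the last with the inhibitory propeptide domain of cathepsin-type proteases, changed by 4.63, 4.52 and 3.63 in shoots. UT1258 and UT149 had no read in WT shoots and were at least 159-fold and 85.4-fold higher.

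The root decreases were led by UT68 and UT726, which are described with all lines below, and by UT495, which stood at 2.15, 2.07 and 0.63 FPKM against 5.59, 6.22 and 7.34 in WT (log2 -1.55, limma adjusted p 0.0069). UT495 thus fell in bHLH6-OV roots and rose in low Pi roots, both measured against the same WT libraries. UT1437, with the domain of ribosomal protein S17 of the small subunit, went from 42.8, 40.9 and 39.9 to 19.0, 22.6 and 25.9 FPKM in roots, by -0.85 (limma adjusted p 0.00444). In shoots UT344 changed by -2.99, UT47 by -1.70, UT24 by -1.50, UT650 by -1.36 and UT1510 by -1.31. The most abundant shoot transcript, UT1398, went from 291, 276 and 326 to 147, 177 and 202 FPKM in shoots, by -0.77 (limma adjusted p 0.00215), and by 0.02 in roots, a difference of 0.79 that passed the test (limma adjusted p 0.00173).

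Called for bHLH6-OV in both tissues were 24 transcripts, 17 in the same direction and 7 in opposite ones. Among transcripts tested in both tissues these were 45.3% of 53 root calls and 20.7% of 116 shoot calls, against 38.6% and 20.4% over all features. UT1206, which reached 1 FPKM in each tissue only through bHLH6-OV, is among them, so these shares are a description. The test of the difference called 233 of 947 (24.6%) against a background of 28.9% (14.7% and 14.2%), 123 with the root change above the shoot change and 110 below. With TPM scaling the split was 70 and 137.

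The spx4 line changed few transcripts, and most of those called changed at least 2-fold. In roots 28 of 645 (4.34%) were called, 12 higher and 16 lower, against a background of 2.46% (0.634% higher and 1.82% lower). In shoots 41 of 787 (5.21%) were called, 13 higher and 28 lower, against 2.14% (0.725% higher and 1.42% lower). Only through spx4 did 14 of the root and 17 of the shoot transcripts reach 1 FPKM. Of these, 10 and 3 are among the calls, so the share of rises rests in part on the choice of members. The shoot count was 68 without the low Pi shoot library of replicate 1. At least 2-fold were 22 of the 28 (10 higher and 12 lower) and 30 of the 41 (8 and 22). Over all features, of 543 root calls 64 were at least 2-fold higher and 163 lower. Of 428 shoot calls 68 were higher and 148 lower by as much. Among transcripts that reach 1 FPKM without the spx4 libraries, 2 were higher and 12 lower in roots, and 5 and 22 in shoots. These rises still include transcripts that pass only through bHLH6-OV and spx4 together, such as UT793 and, in shoots, UT1006. Called in both tissues were 14, of which 4 rose in both and 10 fell in both. Among transcripts tested in both, that was 93.3% of 15 root calls and 60.9% of 23 shoot calls, against 34.9% and 38.7% over all features. UT793 and UT1131 are among the 4 that rose. They reached 1 FPKM in each tissue only through spx4, or through spx4 and bHLH6-OV together, so these shares are a description. The test of the difference between tissues called 36 of 947 (3.80%) against 1.98% (0.828% with the root change above and 1.16% below), 20 above and 16 below.

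Several transcripts of WT had no read at all in spx4. UT1351 (chromosome 7, 11451006 to 11452074, plus strand) stood at 13.9, 10.7 and 11.9 FPKM in WT roots and at 0 in all 6 spx4 libraries, at least 152-fold lower in roots and 65.5-fold lower in shoots. UT923 (chromosome 4, 4939567 to 4940738) stood at 12.6, 11.7 and 10.8 in WT roots and at 0 in spx4, at least 160.9-fold lower. UT1033 (chromosome 4) stood at 16.6, 16.0 and 16.2 in WT shoots and at 0 in spx4, at least 192-fold lower (limma adjusted p 3.5e-07). All 3 were read in every bHLH6-OV and low Pi library, UT1351 at 4.60, 5.94 and 5.76 FPKM in low Pi roots, which was lower than in WT at 200 µM Pi (log2 -1.03, limma adjusted p 9.52e-05). UT913 and UT1000 on chromosome 4 and UT796 on chromosome 3 were also at 0 in spx4 and at least 103-fold, 51.4-fold and 86.6-fold lower in roots.

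Other transcripts were found in spx4 and hardly elsewhere. UT1131 went from 0.027, 0 and 0 in WT roots to 7.65, 9.44 and 7.43 FPKM, and from 0.033, 0.0377 and 0 in WT shoots to 14.4, 17.3 and 13.01 (log2 3.18 and 3.95). UT62 stood at 7.78, 7.91 and 10.1 in spx4 roots, at least 57.3-fold above a WT with no read, and UT821 at 5.66, 7.48 and 5.35, at least 79.7-fold. UT1036 (chromosome 4) was at least 48.0-fold higher in roots and 99.99-fold in shoots. UT1003 (chromosome 4) was at least 44.4-fold higher in roots and UT1352 at least 67.6-fold, and both were at or near 0 in shoots.

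Presence and absence by line was more frequent among the unannotated transcripts than among named loci. In all 6 spx4 libraries 29 of 947 (3.06%) had no read, against 0.304% of expressed named loci, and 16 of these 29 reached at least 5 FPKM in a group of another line at 200 µM Pi, 7 of them on chromosome 4. In all 12 WT libraries 14 (1.48%) had no read, against 0.139% of named loci, and in all 6 bHLH6-OV libraries 3 (0.317%), against 0.0549%. The limit of 5 FPKM was chosen after the values were seen. Levels were lower among the unannotated transcripts, and the part of level in this contrast was not tested.

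The spx4 calls were dense on the first 20 Mb of chromosome 4. In roots 8 of 31 tested transcripts there were called (25.8%), 3 higher and 5 lower, against 20 of 614 elsewhere (3.26%). In shoots 11 of 44 were called (25%), 3 higher and 8 lower, against 30 of 743 (4.04%). Over all features the shares were 14.9 and 2.14% in roots and 12.4 and 1.87% in shoots. For bHLH6-OV the same window held 16.1% called against 12.7% elsewhere in roots and 34.1% against 27.1% in shoots. The window was chosen with results known, SPX4 itself lies on chromosome 3, and what marks this stretch in the line was not tested.

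**Figure D4:**
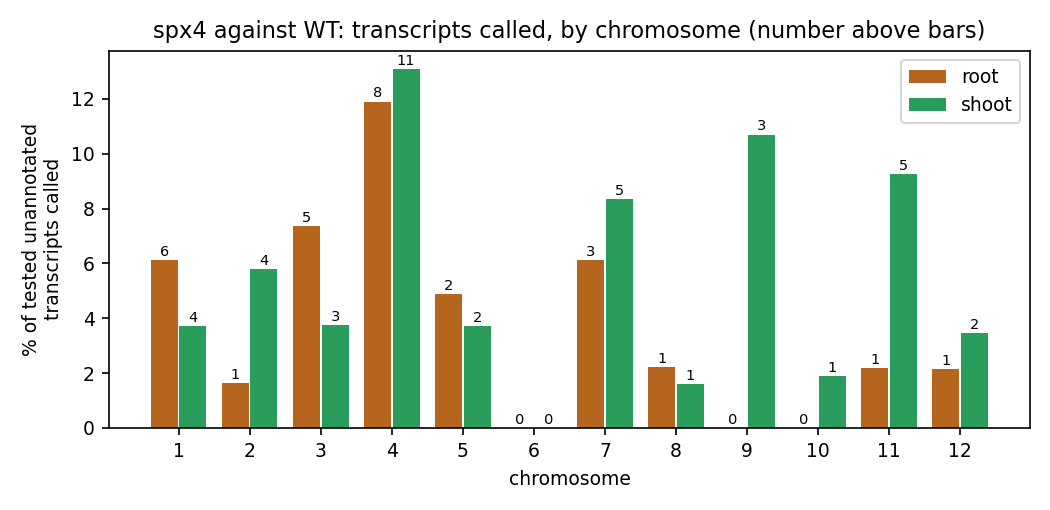
Share of tested unannotated transcripts called in spx4 against WT (limma adjusted p under 0.05) by chromosome in roots (brown) and shoots (green), with the number called above each bar. Chromosome 4 has the highest bars in both tissues, with 8 calls in roots and 11 in shoots.

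A few transcripts moved in nearly every comparison. Of the 947, 337 were called in none of the 6 comparisons within tissues, 378 in 1, 182 in 2, 40 in 3, 7 in 4, 1 in 5 and 2 in all 6. Only the 485 tested in both tissues could be called in more than 3, as 160 were tested in roots alone and 302 in shoots alone. The same count over all features was not made. The 3 comparisons of a tissue share its WT libraries at 200 µM Pi, so a WT value that is high or low enters all 3. Their values are given side by side.

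UT68 (chromosome 1, 24004039 to 24007086, plus strand, no description) was lower in every group than in WT at 200 µM Pi. In roots it stood at 41.5, 29.7 and 32.4 FPKM in WT, 4.54, 1.19 and 3.03 in bHLH6-OV, 8.81, 3.82 and 14.9 in spx4 and 1.31, 4.27 and 3.79 at low Pi. In shoots it stood at 55.5, 40.7 and 43.0 in WT, 0.0328, 0.0399 and 0.183 in bHLH6-OV, 4.04, 9.80 and 19.2 in spx4 and 0.866, 0.0958 and 0.634 at low Pi. No library of another group reached a WT library, and spx4 lay between WT and the other groups in shoots. Log2 fold changes in roots were -3.27 in bHLH6-OV, -1.95 in spx4 and -3.18 at low Pi (limma adjusted p 0.000704, 0.0468 and 0.000356), and in shoots -5.44, -2.19 and -4.97 (limma adjusted p 3.21e-06, 0.0127 and 2.42e-06). The spx4 calls were the least firm: the root call was lost when any of 8 single libraries was left out and the shoot call without WT shoot replicate 1.

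UT726 (chromosome 2, 23008358 to 23011220, minus strand, no description) had the same order of groups on another chromosome. In roots it stood at 34.1, 20.5 and 24.1 FPKM in WT, 3.21, 1.12 and 1.81 in bHLH6-OV, 3.89, 2.61 and 9.07 in spx4 and 1.02, 3.12 and 2.15 at low Pi. In shoots the values were 69.0, 51.2 and 57.2 in WT, 0.235, 0.0953 and 0.218 in bHLH6-OV, 3.66, 9.59 and 23.2 in spx4 and 0.612, 0.172 and 0.0583 at low Pi. In shoots bHLH6-OV and low Pi left UT726 near 0 while the 3 spx4 libraries were spread widely. Log2 fold changes were -3.19, -2.25 and -3.17 in roots (limma adjusted p 0.000288, 0.00792 and 0.000124) and -5.66, -2.49 and -5.57 in shoots (limma adjusted p 6.07e-06, 0.0118 and 2.53e-06), and the shoot spx4 call was lost without WT shoot replicate 1.

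UT1390 (chromosome 7, 2175091 to 2176527, minus strand, no description) was a shoot transcript with the same order. It stood at 329, 242 and 239 FPKM in WT shoots, 0, 0 and 0.0338 in bHLH6-OV, 10.7, 17.0 and 20.9 in spx4 and 0.467, 0.213 and 0.289 at low Pi. Roots of every group had at most 0.0502 FPKM. The shoot groups did not overlap, and the log2 fold changes were -8.05, -4.01 and -7.67 (limma adjusted p 3.19e-10, 2.02e-07 and 8.09e-10). It lies 41 bases from LOC_Os07g04930 on the other strand, which changed by -3.22, -3.00 and -3.11 in the same comparisons.

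UT793 was high in both lines and near 0 in WT at either supply. It stood at 46.4, 40.3 and 36.6 FPKM in spx4 roots and 64.7, 64.2 and 63.3 in spx4 shoots, close to the bHLH6-OV values above, at 0, 0 and 0.0655 in low Pi roots and at 0, 0 and 0.0489 in low Pi shoots. The low Pi shoots were called lower than WT shoots at 200 µM Pi (log2 -0.54, limma adjusted p 0.0474), a call lost when any of 11 single libraries was left out. Both lines were far above WT in both tissues, with log2 fold changes in spx4 of 5.36 and 5.46 (limma adjusted p 4e-12 and 1.56e-08). Since UT793 is a member only through these lines, the p-values add nothing to that choice. UT132 was similar at a lower level, with log2 fold changes in roots of 2.23 in bHLH6-OV and 2.25 in spx4, and in shoots of 2.97 and 2.67.

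UT1515, a root transcript, was lower in all 3 root groups by similar amounts. It stood at 5.87, 6.40 and 6.13 FPKM in WT roots, 2.99, 3.38 and 3.14 in bHLH6-OV, 3.44, 3.81 and 3.66 in spx4 and 3.37, 3.54 and 3.52 at low Pi. The WT libraries at 200 µM Pi were the 3 highest of 12, and log2 fold changes were -0.77, -0.62 and -0.67 (limma adjusted p 3.78e-05, 0.000319 and 4.5e-05).

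**Figure D5:**
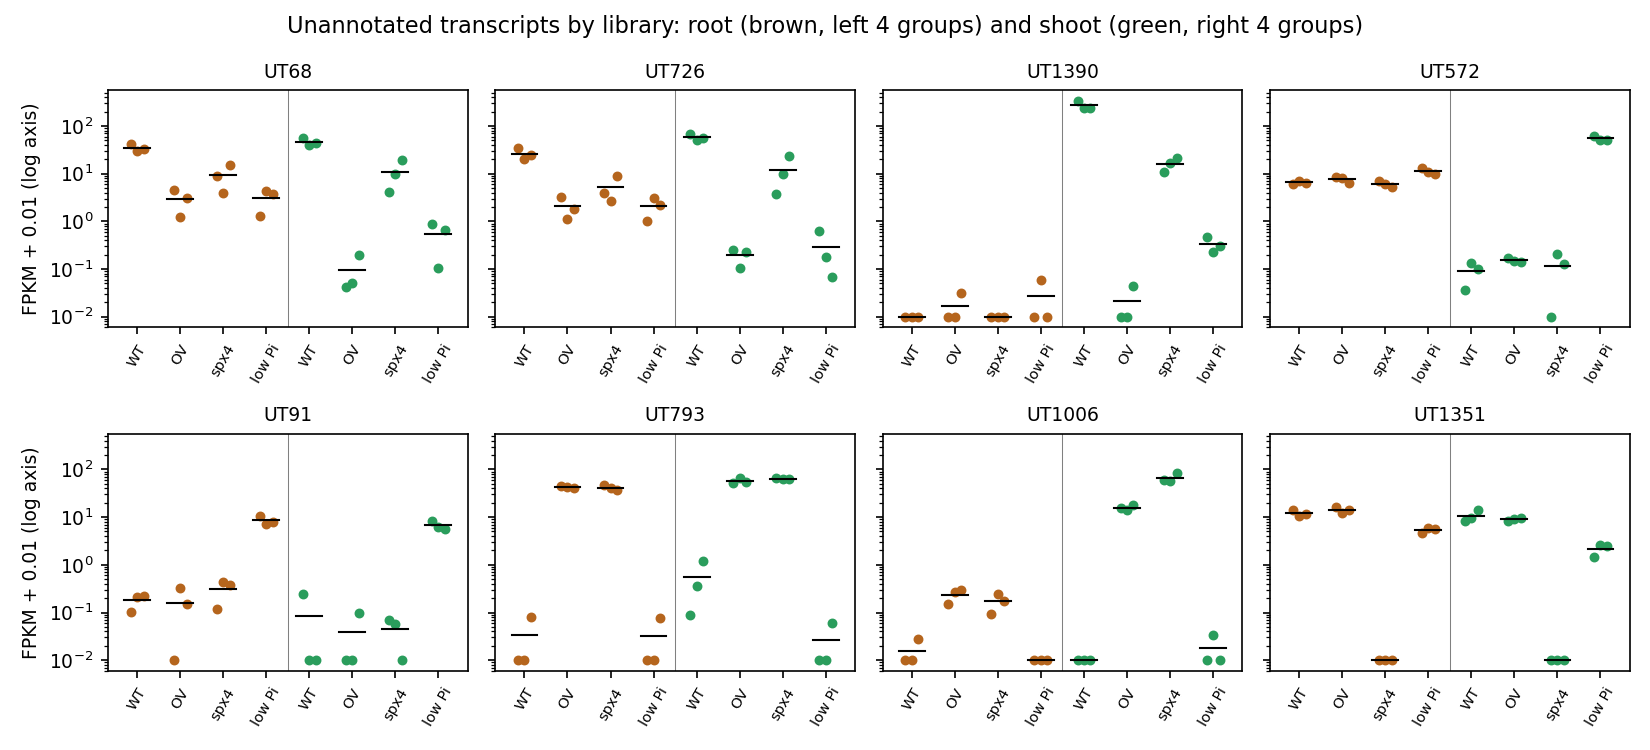
FPKM + 0.01 (log axis) in each library of 8 transcripts, with the 4 root groups on the left in brown, the 4 shoot groups on the right in green and a bar at each group mean. UT68, UT726 and UT1390 are highest in WT at 200 µM Pi, UT572 and UT91 at low Pi, UT793 in both lines, UT1006 in shoots of both lines, and UT1351 is at 0 in spx4.

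Domain descriptions covered 121 transcripts, and the classes below were made by words in them. A domain of unknown function was named in 32, an enzyme of metabolism in 12, transposon-like sequence in 8, ubiquitin or protein turnover in 7, a zinc finger or other DNA-binding domain in 7, ribosomal proteins in 6, a kinase in 5, and immune receptors and transport in 2 each, with 40 in none of these. The word rule misplaced some: GHMP kinases are small-molecule kinases, and proteins such as Skp1 and Spc25 fell under transposon-like. The most abundant of each class, beside those named above, were UT850 (GHMP kinase), UT1318 (NB-ARC, the nucleotide-binding part of plant immune receptors), UT1080 (ABC transporter), UT114 (reverse transcriptase-like), UT741 (PDZ and trypsin-like peptidase), UT1099 (DUF1242) and UT281 (LSD1 zinc finger). Of these UT114 fell by 1.04 in low Pi shoots (limma adjusted p 0.00131), from 6.62, 6.92 and 9.27 FPKM to 2.08, 4.35 and 3.35, and UT741 was the steadiest, with group means of 19.8 to 20.6 FPKM in roots and 28.2 to 30.9 in shoots.

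All 6 ribosomal protein transcripts fell in low Pi shoots. There 26% of all features fell, as did 38.9% of the transcripts and 53.6% of those of at least 20 FPKM. Named loci of ribosomal proteins were not set beside them. UT901, UT1064, UT1434, UT1437, UT1389 (L41) and UT1040 (S11) changed there by -0.66, -0.62, -0.55, -0.47, -0.71 and -0.54 on the log2 scale. UT901 went from 67.8, 67.3 and 76.1 to 51.1, 43.4 and 38.5 FPKM without overlap (limma adjusted p 0.000993). In low Pi roots 1 of the 6 was called, UT1389, with -0.58 (limma adjusted p 0.0396), where its values of 92.6, 45.4 and 66.5 FPKM were widely spread and the call was lost when any of 7 single libraries was left out. Under TPM scaling 3 of the 6 were called lower in low Pi shoots. UT1389 and UT1040 were named after their values were seen.

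The most common domain was DUF834, a domain of unknown function carried by 25 of the 947 on 10 chromosomes, 23 of them spliced. All 25 had a higher mean in shoots, with a median of 1.67 FPKM (1.01 to 20.6) against 0.291 in roots (0.0435 to 3.16), and 14 were at least 4-fold higher in WT shoots. Only 2 of the 25 reached 1 FPKM in roots, so for the others the higher shoot mean was fixed by the choice of members. Low Pi lowered 15 and raised 1 of the 25 in shoots (over all features 26% fell and 22.2% rose), and 11 and 1 under TPM scaling. In bHLH6-OV shoots 4 rose and 4 fell, 5 and 0 under TPM scaling, with 14% of all features higher and 17.3% lower. In spx4 shoots 3 rose and none fell, with 0.725% of all features higher. UT1006 and UT437 are among these 3 and are members only through the shoots of bHLH6-OV and spx4. Their rises follow from the choice of members, so the shares of rises in both lines are a description.

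The 3 DUF834 transcripts that rose in spx4 shoots rose in bHLH6-OV shoots too. UT1006 (chromosome 4, 3178239 to 3180764, minus strand) had no read in WT shoots and stood at 15.3, 14.3 and 17.6 FPKM in bHLH6-OV and 59.2, 58.2 and 83.0 in spx4, at least 254-fold and 1077-fold above the floor. In roots no library exceeded 0.289 FPKM. UT437 had no read in WT and stood at 2.99, 3.85 and 4.66 in bHLH6-OV shoots and 4.61, 4.41 and 5.03 in spx4 shoots. UT1008 rose by 2.08 and 2.09 on the log2 scale. The last 2 were named after their values were seen.

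Some of the nearest named loci changed with the transcripts. Of 42 transcripts that rose in low Pi shoots and had a tested nearest locus, 21 (50%) had a locus that rose, while 24.6% of all such loci rose. Of 139 that fell, 52 (37.4%) had a locus that fell, against 25.7%. For pairs within 1000 bases on opposite strands, 13 of 21 (61.9%) rose together against 18.8% of those loci, and 26 of 67 (38.8%) fell together against 28.1%. On the same strand within 1000 bases the shares were 16.7% against 24.7% for rises and 29.2% against 19.5% for falls. In low Pi roots 7 of 25 (28%) had a locus that rose with them, against 14.8%, and 12 of 53 (22.6%) one that fell, against 15.5%. In bHLH6-OV shoots, opposite-strand pairs rose together in 6 of 16 cases (37.5%, against 11.9%) and fell together in 11 of 23 (47.8%, against 21.9%), while of 11 same-strand pairs 9.09% fell together against 15.6%. In spx4, at any distance and strand, 1 nearest locus was called the same way as its transcript and 3 the opposite way in roots, and 1 each way in shoots. UT347 changed by -1.55 in roots and -1.01 in shoots, while LOC_Os11g12650, 115 bases away on the other strand, changed by 1.24 and 1.74. Neighbours share libraries and position, so no test is given, and unstranded counting could join the values of such pairs.

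Some transcripts passed the level threshold of a tissue through 1 group alone. Without that group's libraries, 20 root transcripts would have fallen below 1 FPKM for bHLH6-OV, 14 for spx4, 13 for low Pi and 10 for WT, and 44, 17, 19 and 15 in shoots. Of these, 14, 10 and 7 were called in the root comparison of that group and 32, 3 and 12 in the shoot comparison. The counts of increases above include such transcripts, which could be members only by being high in that group. Transcripts that pass only through bHLH6-OV and spx4 together, such as UT793 and UT1006, are not among these numbers.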

How the data were processed

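RNA from 24 root and shoot libraries in 8 groups of 3, as the sample labels give them, was measured as FPKM, which the authors deposited in 1 table. Per the submitters' processing notes, HISAT2, StringTie, featureCounts 1.5.0-p3 and DESeq2 were used; the genome build is not given in the sources used here. Read numbers rebuilt from FPKM and length were whole within 0.01 for 100% of values and gave 21.0 to 29.6 M reads per library; the library size implied by FPKM, as a multiple of those reads, ranged from 1.15 to 1.30 for roots and from 0.733 to 1.04 for shoots, so scaling was varied.

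Log2(FPKM + 1) was fitted per tissue with 1 mean per group in limma 3.58.1 (trend, robust; R 4.3.3), for features with a mean FPKM of at least 1 (22090 in roots, 19990 in shoots), and over 24643 features for differences between tissues. A call is a Benjamini-Hochberg adjusted p under 0.05 over all features, and fold changes of FPKM + 1 understate those of low features. Tables came from pandas 2.3.3 and numpy 2.4.6 under Python 3.11.15; the fit was tested on simulated data. Where a group had no read, folds are bounds against 3 reads in each of its libraries.

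Named are the 8 most abundant transcripts per tissue, up to 8 rises and 8 falls per comparison (called, no overlap, at least 5 FPKM in a group), the 3 lowest adjusted p per tissue difference, the most abundant of each domain class, and those next to the threshold. The members and lists were chosen with earlier results of these data known. Pairing by replicate number was checked through correlations of libraries' deviations from their group mean, and no comparison had all same-numbered pairs above 0.1. No sequence is shown.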

Additional observations from a re-analysis of the deposited data

Results flagged for a closer look

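The effects below differed between roots and shoots by a test of the difference itself, and each belongs to a transcript among the 3 with the lowest adjusted p for its comparison. Differences are root minus shoot log2 fold changes of FPKM + 1, so a transcript without root expression can be listed through its shoot change alone. UT149, UT1352 and UT1068 are members only through the group in which they are high. UT1006 is a member only through the shoots of bHLH6-OV and spx4, in which it is high. For all of these the p-values add nothing to that choice.

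UT1390 differed in all 3 comparisons, by 8.06 for bHLH6-OV, 4.01 for spx4 and 7.69 for low Pi (limma adjusted p 7.2e-16, 1.82e-10 and 5.31e-15), and its root level was at most 0.0502 FPKM. UT149 differed by -2.22 for bHLH6-OV (limma adjusted p 3.07e-13), with 4.21, 4.47 and 4.19 FPKM in bHLH6-OV shoots and 0.0381, 0.218 and 0.145 in bHLH6-OV roots.

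UT1006 differed by -3.77 for bHLH6-OV and -5.86 for spx4 (limma adjusted p 3.93e-13 and 6.15e-16). UT1352 differed the other way for spx4, by 2.07 (limma adjusted p 4.11e-13), with 3.84, 4.17 and 4.10 FPKM in spx4 roots and 0.18, 0.165 and 0.257 in spx4 shoots. For low Pi, UT572 differed by -5.00 and UT1068 by -2.98 (limma adjusted p 1.19e-13 and 6.12e-12). UT572 is the one of these with clear root expression at 200 µM Pi, at 6.18, 7.09 and 6.47 FPKM.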

How the results depend on the processing

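Of 210 tested results of named transcripts, 163 kept direction and call under every alternative that could be computed, 47 lost the call under some and none reversed. Among those quoted above, the call was lost under some alternatives for UT68 in spx4 roots and shoots and UT726 in spx4 shoots. It was also lost under some for UT1389 in low Pi roots and for UT793, UT956 and UT1333 in low Pi shoots. Under TPM scaling alone it was lost for UT1040, UT1434 and UT1437 in low Pi shoots. The cause was not tested. Testing only features with a mean of at least 5 FPKM left 194 root, 286 shoot and 330 joint members and so fewer calls: 27, 6 and 63 in roots (bHLH6-OV, spx4, low Pi), 87, 17 and 170 in shoots, and 93, 8 and 126 for the differences. Tissue bias was 396 shoot and 197 root transcripts at 2-fold and 149 shoot at 10-fold. Leaving out 1 library gave 45 to 97 calls for bHLH6-OV roots, 23 to 28 for spx4 roots and 121 to 172 for low Pi roots, 161 to 269, 36 to 68 and 300 to 379 in shoots, and 183 to 269, 27 to 44 and 282 to 334 for the differences. A replicate block gave 79, 26 and 160 calls in roots, 199, 40 and 361 in shoots and 228, 32 and 316 for the differences. Transcripts near 1 FPKM rest on few reads, and changes there could go undetected at this depth.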
